A study of Mus musculus with 3 samples.

Results

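The 9 genes described here encode junction proteins of the blood-testis barrier: Cldn11, Cldn3, Ocln, F11r and Jam3 at tight junctions, their cytoplasmic scaffold Tjp1, the gap junction protein Gja1, and Cdh2 and Ctnna1 at adherens junctions. They were picked by symbol out of the 32285 genes in the deposited count tables, and each symbol matched 1 row. The study compared single cells of adult mouse testis with and without a conditional knockout of Tex10, a nuclear protein described in ribosome biogenesis. 2 libraries came from 1 wildtype mouse each (wildtype replicate 1 and wildtype replicate 2), and 1 library held pooled testis cells of 2 mice with the conditional knockout (the knockout library). All 3 carry the strain label C57BL/6N, and no treatment other than the genotype is given. The labels give no Cre driver and do not say which exons were deleted, so the cells in which Tex10 was removed are not known from them. Because the knockout group is 1 library, no test between groups was possible and no p-value is given.

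The barrier is built between neighbouring Sertoli cells, the somatic nurse cells of the seminiferous tubule, near the base of the epithelium. Its tight junctions, gap junctions and actin-anchored adherens junctions (the basal ectoplasmic specialization) lie side by side and are taken apart and rebuilt as early spermatocytes pass through. Spermatogonia and the earliest spermatocytes stay outside it, and later spermatocytes and spermatids develop behind it. Claudins and occludin seal the space between cells, junctional adhesion molecules (JAMs) bind each other across it, Tjp1 (ZO-1) ties these proteins to actin, Gja1 (connexin 43) forms channels between cells, and Cdh2 (N-cadherin) holds cells together through catenins such as Ctnna1.

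The levels below are unique molecular identifiers (UMIs, which count captured RNA molecules) of a gene per 1000000 UMIs of all cells of a class in a library, abbreviated CPM. Where 3 values follow each other, their order is wildtype replicate 1, wildtype replicate 2, knockout library. Intervals are exact 95% Poisson intervals and cover counting error only. Only 3′ ends were counted and levels are not corrected for length, so each gene is compared with itself across classes and libraries and not with another gene.

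The libraries held 93418341, 96001773 and 147783171 UMIs in 9967, 10153 and 12918 barcodes, and 26206 of 33038 barcodes were kept. Of the kept barcodes, 56.0%, 41.8% and 64.2% fell into clusters of few UMIs, which were kept out of the named classes, and 85 barcode sequences occurred in more than 1 library. Tex10 itself was at 47.4, 42.1 and 36.6 CPM over all germ cells, at 142, 124 and 132 CPM in spermatogonia and at 41.7, 67.6 and 45.7 CPM in Sertoli cells. Since the deleted exons are not given, the 3′ tags may lie outside them, and these values do not check the label.

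The Sertoli class held 24, 21 and 65 cells with 528045, 502721 and 2100343 UMIs. It was named from a list of Sertoli markers, among them Sox9 and Wt1, whose summed level was 34730, 29010 and 31510 CPM. Since these markers gave the name, their level is not an independent check of it. Summed markers of germ cells were also present there, at 9476, 14620 and 23900 CPM, most of it from elongating spermatid markers (5729, 10450 and 20480 CPM). That sum was highest in the knockout library, and its part in the differences below was not tested. Other somatic classes were peritubular myoid cells (94, 95 and 87 cells) and stromal cells (29, 41 and 42 cells). Leydig cells (0, 13 and 47 cells), macrophages (7, 13 and 24) and endothelial cells (0, 0 and 8) were too few in some library for a comparison, and are given as values.

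Cldn11, Cldn3 and Ocln had the most similar profiles of all member pairs: over 28 values (every class and library holding 10 or more cells), Pearson's r of log2(CPM + 10) was 0.97 for each of the 3 pairs. These points share libraries and depth, and the figure is a description. The 250 bases before the start of these 3 genes are shown because of this likeness. They are RefSeq sequences on GRCm38.p6, 5′ to 3′ on the gene's strand, and capitals mark the matches found to the motifs searched. Cldn11 lies at chr3:31149670-31149919 (+), Cldn3 at chr5:134985964-134986213 (+) and Ocln at chr13:100552719-100552968 (-).
Cldn11: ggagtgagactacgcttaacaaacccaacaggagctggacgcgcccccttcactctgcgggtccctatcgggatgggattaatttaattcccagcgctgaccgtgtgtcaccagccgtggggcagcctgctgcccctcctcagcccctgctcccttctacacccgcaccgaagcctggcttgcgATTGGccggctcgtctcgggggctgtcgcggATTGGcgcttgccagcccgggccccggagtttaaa
Cldn3: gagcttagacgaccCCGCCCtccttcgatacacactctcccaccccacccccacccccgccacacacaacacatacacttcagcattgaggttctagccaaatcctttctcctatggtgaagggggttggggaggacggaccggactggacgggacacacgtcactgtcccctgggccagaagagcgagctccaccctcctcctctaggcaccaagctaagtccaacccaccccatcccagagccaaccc
Ocln: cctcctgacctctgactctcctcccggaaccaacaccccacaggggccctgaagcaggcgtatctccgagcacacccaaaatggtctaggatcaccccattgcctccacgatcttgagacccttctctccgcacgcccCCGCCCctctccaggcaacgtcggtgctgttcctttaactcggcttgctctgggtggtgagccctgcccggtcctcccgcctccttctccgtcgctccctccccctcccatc

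In Cldn11 the capitals are 2 CCAAT boxes read on the opposite strand, 66 and 35 bases before the start. In Cldn3 and Ocln they are a GC box (GGGCGG) on the opposite strand, 236 and 112 bases before it. The 7 motifs searched on both strands were GATAA as the core of GATA factor sites, ACAAT as the core of SOX sites, GGGCGG as the GC box, CCAAT as the box of that name, TATAAA as the TATA box, CAAGGTCA as the NR5A1 site and TGANTCA as the AP-1 site. They occur in 22.5%, 27.4%, 33.0%, 33.8%, 12.3%, 1.33% and 6.73% of 32536 promoters of the same length. No match to the GATA, SOX, TATA box, NR5A1 or AP-1 motif was found in these 3 windows, and a match describes letters only. GC content was 63.6%, 60.8% and 64.0%, against a median of 52.4% over all promoters. A promoter entry was used for 6 of the 9 genes, and none was used for Jam3, Cdh2 and Ctnna1. Of these 6, the entries of F11r, Gja1 and Tjp1 are not printed.

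All 9 genes were highest in Sertoli cells in wildtype replicate 1 and in the knockout library, and 8 of 9 in wildtype replicate 2, among the 8 classes compared. Over all genes reaching 20 CPM in a class, 13.8%, 12.5% and 12.3% were highest in Sertoli cells. The exception was Ctnna1 in wildtype replicate 2, at 73.6 CPM in Sertoli cells. Myoid cells (97.5 CPM), spermatogonia (83.2 CPM) and stromal cells (75.7 CPM) were higher there, each with an interval overlapping that of Sertoli cells. How far Sertoli cells stood above pooled germ cells differed by gene. Cldn11 was 638-fold, 871-fold and 330-fold above them, Cldn3, Ocln and F11r 46.2-fold or more in every library, and Gja1 26.9-fold, 20.04-fold and 13.6-fold. Ctnna1 followed at 15.1-fold, 8.59-fold and 12.5-fold, and Jam3, Tjp1 and Cdh2 lay between 3.25-fold and 7.34-fold. Most UMIs of the pool come from late spermatocytes and spermatids, so these folds do not hold for each germ cell class. Ctnna1 in spermatogonia was far above the pool.

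**Figure D1:**
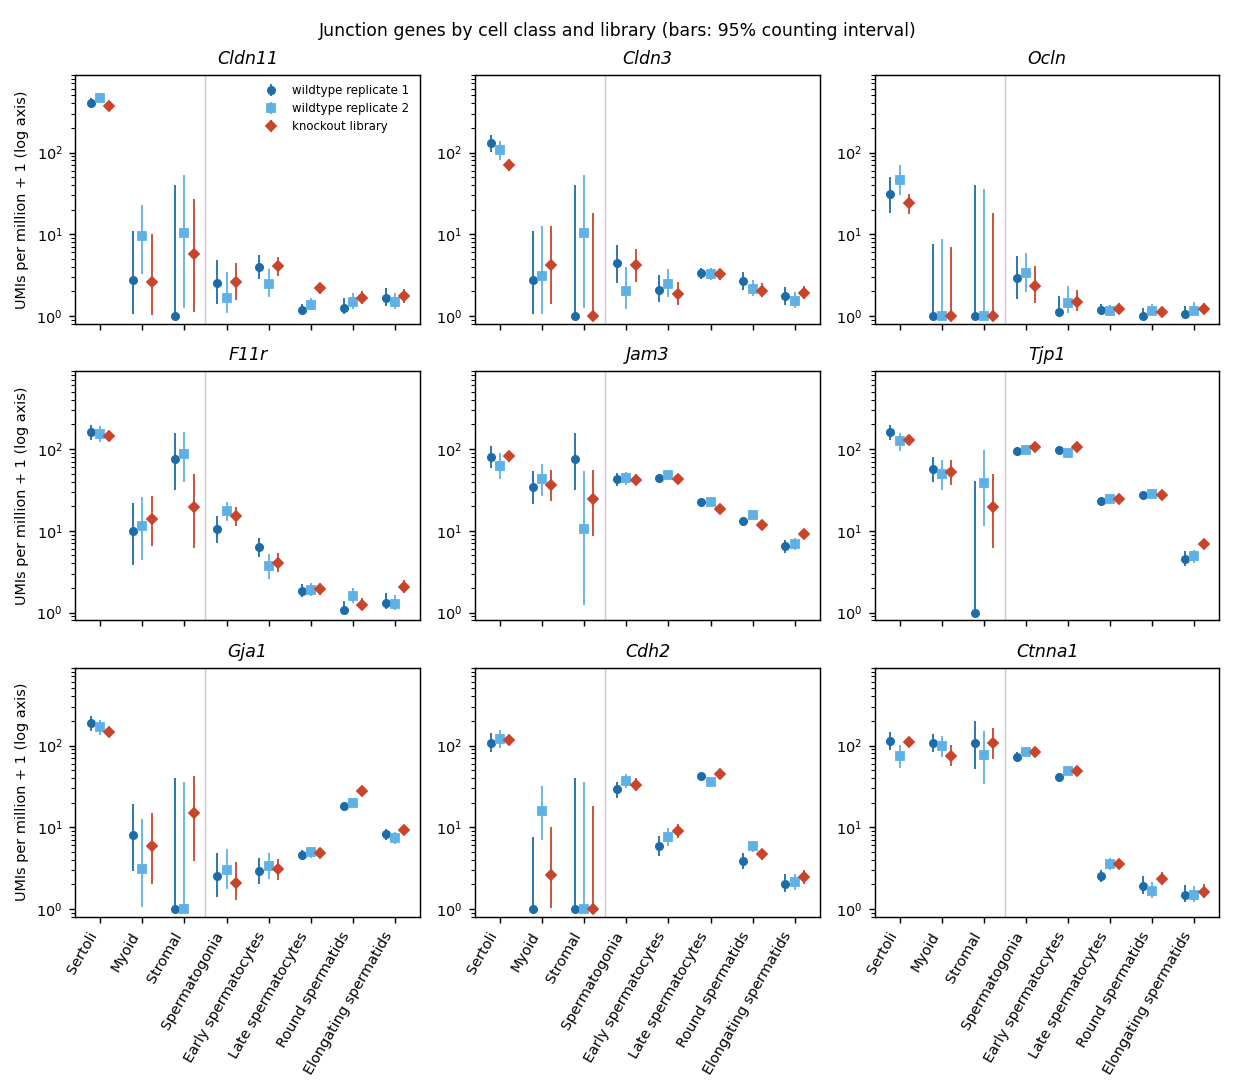
CPM plus 1 (log axis) of each gene in the 8 classes compared. Points are libraries (circles wildtype replicate 1, squares wildtype replicate 2, diamonds the knockout library), bars are 95% counting intervals, and the grey line divides somatic from germ cell classes. Cldn11, Cldn3 and Ocln are highest in Sertoli cells and at 9.46 CPM or less in the other classes plotted, with wide intervals in stromal cells, while Tjp1, Jam3, Cdh2 and Ctnna1 also have levels above 20 CPM in germ cell classes.

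Cldn11 makes the continuous tight junction strands of Sertoli cells, and male mice without it are sterile. It is on chromosome 3 (31149920 to 31164324 on GRCm38, plus strand). Its level in Sertoli cells was 403, 463.5 and 374 CPM (intervals 351 to 461, 406 to 527 and 348.5 to 401). The knockout library was the lowest of the 3, and its interval overlapped that of wildtype replicate 1. All 24 and 21 wildtype Sertoli cells and 64 of 65 knockout Sertoli cells held a Cldn11 UMI. In germ cell classes it stayed between 0.182 and 3.08 CPM, and in spermatogonia thinned to 3000 UMIs per cell, 0, 1 and 2 cells of 220, 292 and 239 held one. Sertoli cells thinned alike held one in 62.5%, 85.0% and 67.7%.

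Cldn3, a claudin of newly assembled barrier junctions that androgen induces, is on chromosome 5 (134986214 to 134987472, plus strand). Its level in Sertoli cells was 129, 105 and 69.0 CPM (intervals 100 to 163, 79.0 to 138 and 58.3 to 81.2). The knockout library was below both wildtype libraries, at 59.0% of their mean, and its interval stood clear of wildtype replicate 1 and overlapped wildtype replicate 2. The share of Sertoli cells with a Cldn3 UMI was 62.5%, 61.9% and 55.4%. In germ cells Cldn3 was low and highest in the last cluster of late spermatocytes, at 4.26, 5.20 and 4.67 CPM. The antisense gene Wbscr25 lies over the last 500 bases of Cldn3 on the other strand, and use of strand in the counting is not stated. Where Wbscr25 was at 915, 943 and 1036 CPM, in elongating spermatids, Cldn3 was at 0.736, 0.531 and 0.917 CPM. In Sertoli cells Wbscr25 was at 56.8, 55.7 and 95.2 CPM, with the knockout interval above both wildtype intervals, and its part in the Cldn3 values was not tested.

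Ocln, the tetraspan protein occludin, is on chromosome 13 (100496507 to 100552718, minus strand). It was at 30.3, 45.8 and 22.9 CPM (intervals 17.3 to 49.2, 29.0 to 68.7 and 16.9 to 30.3) in Sertoli cells, from 16, 23 and 48 UMIs. The knockout library was again the lowest, at 60.1% of the wildtype mean, and all 3 intervals overlapped. Outside Sertoli cells the highest class was spermatogonia, at 1.89, 2.35 and 1.33 CPM, and no Ocln UMI was found in myoid or stromal cells of any library (3 UMIs would be 5.29, 6.36 and 4.85 CPM in myoid cells and 32.1, 28.4 and 14.1 CPM in stromal cells). The stromal limit is close to the Sertoli level, so stromal cells cannot be placed below it.

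F11r (JAM-A), on chromosome 1 (171437535 to 171464603, plus strand), was at 159, 153 and 144 CPM in Sertoli cells, with wide overlap of the intervals. It was also present in spermatogonia, at 9.47, 16.4 and 14.0 CPM, and declined to about 1 CPM or less by late spermatocytes (0.849, 0.901 and 0.928 CPM). In stromal cells it was at 75.0, 85.2 and 18.7 CPM, from 7, 9 and 4 UMIs. Among the 8 endothelial cells of the knockout library it was at 121 CPM.

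Jam3 (JAM-C), which polarizing spermatids need, is on chromosome 9 (27097384 to 27155421, minus strand). It was at 79.5, 61.7 and 80.5 CPM in Sertoli cells and at 33.5, 42.4 and 35.5 CPM in myoid cells. In germ cells it was as high in spermatogonia (41.7, 42.6 and 41.1 CPM) as in early spermatocytes (43.3, 47.1 and 42.1 CPM). The Sertoli level overlapped that of the next class in both wildtype libraries and stood 1.91-fold above it in the knockout library.

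Tjp1 (ZO-1), on chromosome 7 (65296165 to 65527781, minus strand), was at 159, 123 and 127 CPM in Sertoli cells. Spermatogonia (92.4, 97.7 and 104 CPM) and early spermatocytes (95.7, 87.8 and 105 CPM) came close to that level, and the intervals of Sertoli cells and spermatogonia overlapped in wildtype replicate 2 and in the knockout library. Myoid cells were at 56.5, 48.7 and 51.7 CPM. The 8 endothelial cells of the knockout library were at 288 CPM, above its Sertoli cells.

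Gja1 (connexin 43), on chromosome 10 (56377330 to 56402513, plus strand), was at 186, 167 and 146 CPM in Sertoli cells. Leydig cells, which also couple through this connexin, were at 144 CPM in wildtype replicate 2 and 61.2 CPM in the knockout library, from 33 and 65 UMIs. Wildtype replicate 1 had no cells in the Leydig class, and 8 Leydig barcodes of few UMIs, so the difference rests on 1 library a side. Of germ cell classes round spermatids were highest, at 17.2, 18.9 and 27.1 CPM.

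Cdh2 (N-cadherin) and Ctnna1 (alpha-catenin) are both on chromosome 18. Cdh2 was at 108, 119 and 115 CPM in Sertoli cells, with no order between the genotypes. No Cdh2 UMI was found in stromal cells, where 3 UMIs would be 32.1, 28.4 and 14.1 CPM. Ctnna1 was at 114, 73.6 and 111 CPM in Sertoli cells, 108, 97.5 and 74.3 CPM in myoid cells, and 107, 75.7 and 108 CPM in stromal cells. In every library its highest class overlapped the next.

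Knockout and wildtype Sertoli cells were then compared. A size rule was used in place of a test: a gene was called when its log2 ratio, with 1 CPM added, reached 1 in size against each wildtype library with the same sign, was 2 or more times as large as the ratio of one wildtype library to the other, and 1 library reached 20 CPM. None of the 9 genes was called in Sertoli cells, against 0.989% of the 8390 genes tested. The median log2 ratio of the 9 genes to the wildtype mean was -0.15, against -0.062 over all genes tested. Cldn11, Cldn3, Ocln, F11r and Gja1 were below both wildtype libraries, with log2 ratios of -0.21, -0.75, -0.71, -0.12 and -0.27, so 5 of 9 genes against 35.5% of all genes with a UMI in each library. Jam3 was above both (0.19), and Tjp1, Cdh2 and Ctnna1 lay between them. With a 1.5-fold limit, or with the mean of each cell's CPM in place of summed UMIs, Cldn3 alone of the 9 was called, lower in the knockout library, against 4.18% and 1.27% of all genes tested. None of the 9 had a knockout interval clear of both wildtype intervals, against 1.59% of all genes.

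**Figure D2:**
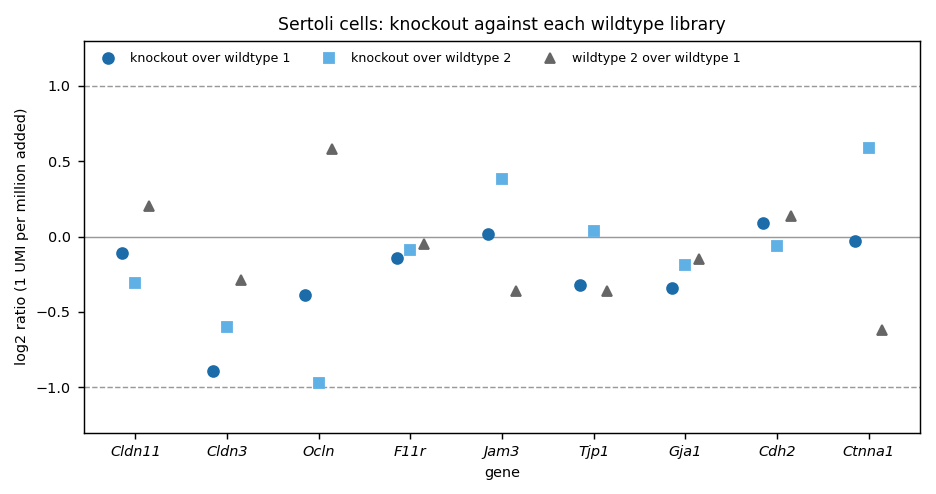
Log2 ratios, with 1 CPM added, of each gene in Sertoli cells: the knockout library over wildtype replicate 1 (circles), over wildtype replicate 2 (squares), and wildtype replicate 2 over replicate 1 (triangles). Dashed lines mark the 2-fold limits. No gene has both knockout ratios past a dashed line, and Cldn3 and Ocln come nearest.

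Many Sertoli cells fell to the limit of 10% mitochondrial UMIs. The barcodes left out by the cell filter held 561, 786 and 736 Cldn11 UMIs, more than the 213 and 233 of the wildtype Sertoli classes. With a limit of 30%, chosen after seeing the data, the Sertoli class grew to 60, 88 and 114 cells. Cldn11 was then at 525, 577 and 437 CPM (intervals 484 to 569.5, 538.5 to 617 and 413 to 461), and Cldn3 at 115, 144 and 82.3 CPM (intervals 96.4 to 137, 125 to 164 and 72.4 to 93.3). For both claudins the knockout interval was now below both wildtype intervals, which was so in either direction for 4.06% of all genes, and neither reached the 2-fold limit. Ocln (42.6, 51.8 and 29.1 CPM), Gja1 (205, 224 and 171 CPM) and F11r (180, 177 and 168 CPM) were also lowest in the knockout library, with intervals that overlapped at least 1 wildtype library. Jam3 (85.2, 110 and 88.3 CPM), Tjp1 (142, 153 and 148 CPM) and Ctnna1 (156, 122 and 128 CPM) lay between the wildtype values, and Cdh2 was level at 120.7, 124.6 and 120.5 CPM. Summed Sertoli markers were at 39480, 38740 and 34880 CPM in this larger class, also lowest in the knockout library, and the part of that in the claudin values was not tested.

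At full depth, single Sertoli cells usually held UMIs of most of the 9 genes. The median cell held UMIs of 7, 8 and 8 of them, at median depths of 18896.5, 18112 and 26300 UMIs. After thinning each cell to 3000 UMIs, which left out 1 cell of wildtype replicate 2, the median cell held UMIs of 3, 3 and 2 of them. The thinned shares of cells with a UMI had intervals that overlapped between the libraries for each gene. Cldn3 was then found in 16.7%, 25.0% and 21.5% of cells and Gja1 in 20.8%, 40.0% and 36.9%.

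**Figure D3:**
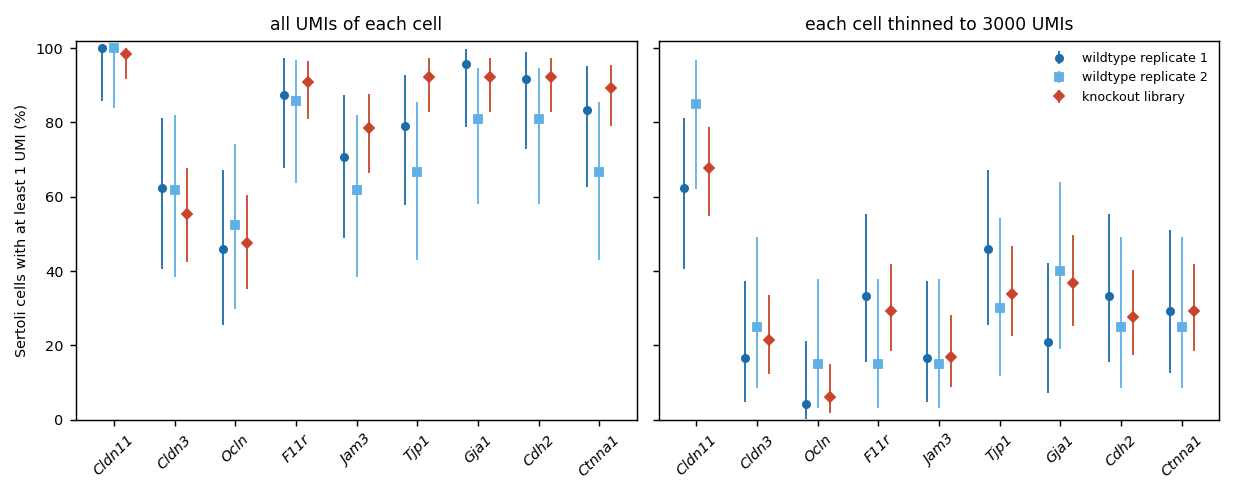
Percent of Sertoli cells with at least 1 UMI of each gene, by library, with all UMIs (left) and after thinning each cell to 3000 UMIs (right). Bars are exact 95% binomial intervals, and they overlap between the libraries for every gene after thinning. Cldn11 is found in 98.5% or more of cells before thinning.

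A further 474, 304 and 554 barcodes with few UMIs carried Sertoli markers. They held 22.8, 26.9 and 26.5 UMIs of the 9 genes per 1000 UMIs of Sertoli markers, fewer than the 39.4, 45.3 and 37.7 of the Sertoli class. Cldn11 in these barcodes was 30.8%, 34.0% and 20.3% of its level in the Sertoli class, and Cldn3 58.1%, 76.7% and 80.0%. At 124, 158 and 75.9 CPM, Cldn11 was the 1 of 9 genes whose knockout interval (61.9 to 92.0) lay apart from both wildtype intervals there (101 to 151 and 125 to 196), against 2.03% of all genes. Summed Sertoli markers of these barcodes were also lowest in the knockout library, at 23310, 22570 and 16900 CPM, and their part in this was not tested. Their summed germ cell markers were at 48030, 41850 and 45440 CPM.

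In the germ line the 4 widely expressed genes and Gja1 each followed a course of their own. The 12 germ cell clusters were placed in order by the likeness of their profiles, starting from spermatogonia, without the 9 genes or the other junction genes. Ctnna1 was at 71.9, 83.2 and 83.5 CPM in spermatogonia, 85.2, 103 and 91.1 CPM in the first early spermatocyte cluster and 25.7, 24.3 and 31.1 CPM in the second, and over all late spermatocytes at 1.55, 2.52 and 2.58 CPM. Tjp1 was at 98.8, 120 and 137 CPM in the first early spermatocyte cluster and 94.6, 74.5 and 92.8 CPM in the second. In the knockout library that first cluster was above Sertoli cells (127 CPM), with overlapping intervals. Tjp1 then went from 36.1, 35.7 and 38.1 CPM in the first late spermatocyte cluster to 9.21, 10.4 and 11.9 CPM in the second. It was back at 36.9, 36.3 and 38.1 CPM in the second round spermatid cluster and at 12.9, 6.83 and 12.8 CPM in the last. This course of 2 phases was shared by all 3 libraries, and over all elongating spermatids Tjp1 was at 3.56, 3.87 and 5.85 CPM.

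Cdh2 had 2 peaks. It was at 28.0, 35.9 and 32.3 CPM in spermatogonia, fell to 3.26, 5.44 and 3.78 CPM in the second early spermatocyte cluster, and returned to 52.3, 48.3 and 54.1 CPM in the second late spermatocyte cluster, which has Pou5f2 among its leading genes. The next cluster was at 10.97, 10.9 and 9.33 CPM. This order of levels was the same in all 3 libraries, with intervals apart at each of these changes.

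Jam3 dipped in late spermatocytes, to 12.9, 13.9 and 12.9 CPM in the second cluster, and rose again to 41.7, 36.1 and 34.1 CPM in the last. That last late cluster was named by its markers but shares its leading gene, 1700001F09Rik, with the first round spermatid cluster. From there Jam3 declined to 4.69, 4.96 and 5.84 CPM in the first elongating cluster, and was higher again in the last, at 12.3, 9.58 and 17.4 CPM.

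Gja1 was at 0.254, 0.543 and 0.212 CPM in the second late spermatocyte cluster and appeared in the last, at 13.9, 14.7 and 20.9 CPM. It peaked in the first round spermatid cluster, at 19.8, 21.5 and 34.6 CPM, and was at 12.9, 10.8 and 14.2 CPM in the first elongating cluster.

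**Figure D4:**
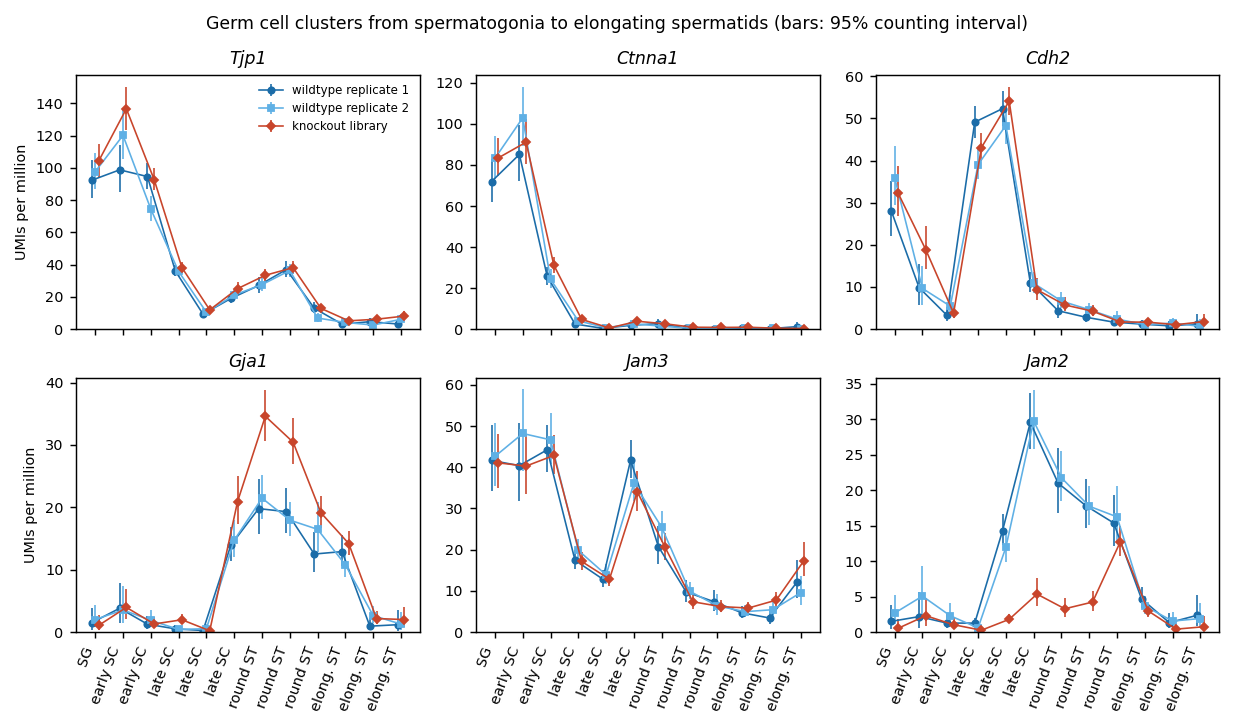
CPM of 5 members and of Jam2 across 12 germ cell clusters, from spermatogonia (SG) through early and late spermatocytes (SC) to round and elongating spermatids (ST). Points are libraries, bars 95% counting intervals, and lines only join points. Cdh2 has peaks in spermatogonia and late spermatocytes, Gja1 in the knockout library lies above both wildtype libraries in round spermatids, and Jam2 lies far below them from the second late spermatocyte cluster to the second round spermatid cluster.

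Knockout and wildtype were also compared in the other 7 classes. Of 19 pairs of a gene and a class that reached 20 CPM, 1 was called: F11r in stromal cells, lower in the knockout library with a log2 ratio of -2.04, from 7, 9 and 4 UMIs with overlapping intervals. In stromal cells 1 of 4 members tested was called, against 8.79% of all genes. No member was called in the other classes: 0 of 3 in myoid cells (2.36% of all genes), 0 of 4 in spermatogonia (0.351%), 0 of 3 in early spermatocytes (0.247%), 0 of 3 in late spermatocytes (0.747%) and 0 of 2 in round spermatids (1.16%). In elongating spermatids no member reached the minimum (1.43% of all genes called).

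Of the germ cell values that reached 20 CPM, Gja1 in round spermatids and Jam3 in late spermatocytes had knockout intervals apart from both wildtype intervals. The 260, 390 and 773 UMIs of Gja1 gave 17.2, 18.9 and 27.1 CPM (intervals 15.2 to 19.5, 17.0 to 20.8 and 25.3 to 29.1), so that the knockout interval was above both wildtype intervals. In the knockout library it stood at 150% of the mean of the wildtype values, below the 2-fold limit, and 13.0% of all genes had a knockout interval apart in this class. Within the 3 round spermatid clusters it was 19.8, 21.5 and 34.6 CPM, then 19.3, 18.0 and 30.4 CPM, then 12.5, 16.5 and 19.1 CPM, so the knockout library was highest in each. Summed Sertoli markers in round spermatids were 63.3, 72.8 and 106 CPM, also highest in the knockout library. In knockout Sertoli cells 1000 UMIs of those markers went with 4.64 UMIs of Gja1. The share of round spermatids with a Gja1 UMI was 37.7%, 34.5% and 59.4% unthinned and 4.99%, 6.40% and 7.83% after thinning to 3000 UMIs, with thinned intervals that overlapped. Cldn11 was found in 0.217%, 0% and 0.614% of the same thinned cells. For 0 of 828 cells, a limit of 3 cells would be 0.362% of cells with a UMI. The part of Sertoli RNA in the Gja1 values was not tested.

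In late spermatocytes 2 of 9 members had knockout intervals apart from both wildtype intervals, against 15.8% of all genes. Jam3 was lower, at 21.5, 21.8 and 17.6 CPM. The knockout library had fewer cells in the last late cluster, where Jam3 is high (271, 320 and 164 cells). With the clusters given equal weights the Jam3 levels were 24.0, 23.3 and 21.4 CPM. Cldn11 was higher in the knockout library, at 0.182, 0.360 and 1.18 CPM from 6, 10 and 47 UMIs. Summed Sertoli markers were at 43.6, 65.2 and 81.5 CPM in late spermatocytes, and their part in this was not tested.

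In elongating spermatids all 9 members were above both wildtype libraries in the knockout library, at levels of 8.39 CPM or less, against 39.4% of all genes with a UMI in each library. Intervals were apart for 2 of them, Jam3 (5.46, 5.89 and 8.11 CPM) and Tjp1 (3.56, 3.87 and 5.85 CPM), against 9.24% of all genes. Summed Sertoli markers were at 162, 150 and 205 CPM in this class, and their part in these values was not tested.

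Ctnna1 in myoid cells was below both wildtype libraries in the knockout library (108, 97.5 and 74.3 CPM, log2 ratio -0.46), with overlapping intervals. In spermatogonia Tjp1, Jam3, Cdh2 and Ctnna1 had log2 ratios of 0.13, -0.04, 0.02 and 0.10, with intervals that overlapped. F11r in spermatogonia was at 9.47, 16.4 and 14.0 CPM, and the wildtype libraries differed more from each other than from the knockout library.

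Other junction genes were read from 5 lists. In Sertoli cells the size rule called 0 of 8 other tight junction genes tested, 0 of 1 connexin, 0 of 18 adherens junction and ectoplasmic specialization genes and 0 of 24 barrier regulators, and no desmosome gene reached 20 CPM there. Only 0.989% of all genes tested in Sertoli cells were called, so these counts of 0 do not set the lists apart. The median log2 ratios of the tight junction, adherens junction and regulator lists were -0.09, -0.06 and 0.01. Among the tight junction genes, the adaptor Cgn (cingulin) was at 208, 269 and 211 CPM in Sertoli cells and Jam2 at 75.8, 87.5 and 71.4 CPM. Ybx3, a DNA and RNA binding partner of ZO-1, was at 653, 893 and 729 CPM in Sertoli cells and higher in germ cells. Ybx3 is among the markers that named the late spermatocytes, its highest class, so this order is not independent of that naming.

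Of the connexins Gja6 was the only one highest in Sertoli cells that reached the minimum, at 24.6, 17.9 and 28.1 CPM. Gjc1 was at 5.68, 5.97 and 6.19 CPM there. Espn, the actin bundler of the ectoplasmic specialization, was at 883, 726 and 1154 CPM, Arpc1b, an Arp2/3 subunit, at 311, 298 and 410 CPM, Cadm1 at 330, 302 and 278 CPM, and Nectin2 at 165, 205 and 176 CPM. The desmosome genes Pkp4, Perp, Dsg1b and Pkp1 were at 18.1 CPM or less in Sertoli cells. Of the regulators, the transcription factors Sox9 (299, 261 and 220 CPM) and Wt1 (286, 279 and 208 CPM) were lowest in the knockout library, Timp2 was at 729, 686 and 701 CPM and Cdc42 at 313, 340 and 237 CPM. Both transcription factors are among the Sertoli markers.

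List genes highest in Sertoli cells were 4 of 14 tight junction genes, 1 of 3 connexins, 8 of 25 adherens junction genes, 0 of 2 desmosome genes and 7 of 28 regulators that reached 20 CPM in a class. The regulator list shares Sox9, Wt1, Gata4 and Fshr with the markers that named the Sertoli class, so its count is not independent of that naming. In myoid cells Pkp2 (26.5, 17.0 and 3.23 CPM) and Mmp2 (33.5, 21.2 and 3.23 CPM) were called lower in the knockout library, each from 19 UMIs or fewer a library. They were 1 of 2 desmosome genes and 1 of 22 regulators tested there, against 2.36% of all genes, and the other lists had no call. Among the stromal calls, Jam2 and Pard3 were higher and Patj, Gjc1, Nectin2, Pkp2 and Prkca lower in the knockout library, each from at most 8 UMIs in any library. Stromal cells had 7 tight junction genes, 1 connexin, 18 adherens junction genes, 1 desmosome gene and 26 regulators tested. Of all genes tested in stromal cells, 8.79% were called.

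Jam2 (JAM-B), a binding partner of JAM-C, was lower in late germ cells of the knockout library. In late spermatocytes it was at 12.6, 11.4 and 1.73 CPM (intervals 11.4 to 13.9, 10.2 to 12.8 and 1.35 to 2.19), from 415, 317 and 69 UMIs, and in round spermatids at 17.9, 18.8 and 7.34 CPM. The knockout library was far below both wildtype libraries, which lay close together. The log2 ratios to the wildtype mean were -2.25 and -1.21. Jam2 did not reach 20 CPM in these classes and so was not tested by the size rule. It was singled out after its values were seen, by applying the rule without the minimum but with intervals apart, which in late spermatocytes passed 0.567% of 24159 genes and none of the 9 members.

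Among the members and list genes, Jam2 was the only one to pass in this way, in late spermatocytes and round spermatids and in no other class. In round spermatids the rule without the minimum, with no condition on intervals, passed 0.576% of all 32285 genes, including those with no UMI. The like share in late spermatocytes was 0.424%. These shares have another base than the one given above for late spermatocytes, which counts only genes with a UMI. By cluster Jam2 was at 14.3, 11.9 and 1.80 CPM and then 29.6, 29.8 and 5.36 CPM in the second and the last late cluster. The round clusters followed at 21.0, 21.8 and 3.29 CPM, 17.8, 17.7 and 4.24 CPM, and 15.4, 16.2 and 12.8 CPM, and the intervals overlapped in the last of them. Sertoli cells, at 75.8, 87.5 and 71.4 CPM, had overlapping intervals.

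Genes of most similar profile were ranked over the same 28 values among 14074 genes. Closest to Cldn11 were Dmrta1 (r = 0.988), Tmem114 and Slc52a3, closest to Cldn3 were AU015836 (0.985), Trpc5os and Hsd17b1, and closest to Ocln were Pate7 (0.994), Gm36028 and Cnnm1. F11r was closest to Slc27a3 (0.931), Man2a1 and Casp6, and Jam3 to Stx6 (0.914), Neo1 and Chmp7. Tjp1 was closest to Gar1 (0.908), Thada and Zcchc7, and Gja1 to Bricd5 (0.935), Fyb2 and Slc7a4. Cdh2 was closest to Ttn (0.871), Slain1 and Derl3, and Ctnna1 to Add1 (0.976), Jak1 and Nisch. These values describe profiles that share libraries and depth.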

How the data were processed

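The authors deposited unnormalized UMI counts per gene and barcode for 3 droplet libraries (10x Genomics 3′ chemistry), and the submitters' processing notes name Cell Ranger 4.0.0, Seurat 4.0.5 and mm10, with no roles. Use of strand in the counting, and the other steps before deposit, are not given in the sources used here. Barcodes with at least 1000 UMIs, 500 genes and at most 10% mitochondrial UMIs passed (8134, 8337 and 12014), and the 8% with the highest Scrublet doublet scores of each library were left out (651, 667 and 961). Cells were clustered with Scanpy 1.11.5 and leidenalg 0.10.2 (2000 variable genes without the members and junction lists, 30 principal components, 15 neighbours, resolution 1, no batch correction) and named from marker lists, so classes may differ from the study's own. Clusters whose median UMI total was under 3 times the library's lowest deposited total were kept apart as low-UMI clusters. A second round of clustering of the somatic cells, the low-UMI rule, a mixed cluster left without a name and 5 of the alternatives were chosen after seeing the data. The members and gene lists were chosen with earlier results of these data known.

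UMI counts were summed per class and library and divided by the class total, with classes compared where each library had at least 10 cells. Poisson and Clopper-Pearson intervals are at 95% and cover counting error only. The size rule was tested on simulated Sertoli counts with Poisson counting error only and the same means in both wildtype libraries. Such counts cannot show how the rule behaves with spread between mice or libraries. With 1 knockout library, pooled from 2 mice, the spread between knockout mice is unknown, and the genotype, the library and its cell makeup cannot be told apart. Named genes were the members, the 4 genes of each list with the highest mean level in Sertoli cells, every list gene passing the size rule, and 3 genes of like profile a member. Some list genes that this rule names are not reported here. Gene positions are from GENCODE vM21 on GRCm38, and 250 bases before each start from RefSeq. Words of 31 bases from the last 500 bases of each transcript were shared with other genes for Ocln (0.666%), Gja1 (1.67%) and Ctnna1 (1.63%) and for no other member. Python 3.11.15, NumPy 2.4.6, SciPy 1.17.1, pandas 2.3.3 and Matplotlib 3.10.9 were used.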

Additional observations from a re-analysis of the deposited data

Results flagged for a closer look

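Among pairs of a gene and a class that reached 20 CPM in a library, the knockout library lay above both wildtype libraries in one class and below both in another for 3 genes. Jam3 was above both in Sertoli cells (log2 ratio to the wildtype mean 0.19) and below both in spermatogonia (-0.04), early spermatocytes (-0.10) and late spermatocytes (-0.29). Gja1 was above both in round spermatids (0.56) and below both in Sertoli cells (-0.27). Ctnna1 was above both in stromal cells (0.23), spermatogonia (0.10) and early spermatocytes (0.13) and below both in myoid cells (-0.46). None of these differences between classes was tested, since the knockout group is 1 library. Of the 10 values, the knockout interval stood apart from both wildtype intervals for Gja1 in round spermatids and Jam3 in late spermatocytes. Without the limit of 20 CPM, Cldn11, Cldn3, Ocln and F11r also changed side. They were below both in Sertoli cells and above both in elongating spermatids, where none of them exceeded 1.06 CPM. For these genes no knockout interval stood apart from both wildtype intervals in either class.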

How the results depend on the processing

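Of 1341 log2 ratios recomputed under alternative settings, 1135 shifted within the spread of the wildtype libraries or, for the called pair, stayed called. A further 200 moved more than that spread without being called. The size rule was newly passed by 4 with the same sign and by 1 with the other sign, and 1 no longer passed. The 1 that passed with the other sign was Jam3 in stromal cells (log2 ratio -0.82, from 7, 1 and 5 UMIs). Jam3 was called higher there (1.22) when wildtype replicate 1 was left out and lower (-1.64) when wildtype replicate 2 was. Sign alone, without regard to the rule, changed more often. At most 11 of 72 ratios in a setting had the other sign, with no doublet removal and without wildtype replicate 2. The median log2 ratio of the 9 genes in Sertoli cells, -0.15, was -0.11 with 15% of doublet scores left out, -0.03 with low-UMI clusters included, -0.09 with median-of-ratios size factors, -0.34 in low-UMI Sertoli clusters alone and -0.07 with 1 round of clustering. Leaving out each wildtype library gave -0.14 to -0.09. The count of members called in Sertoli cells, 0, became 1 (Cldn3) with the mean of per-cell CPM (1.27% of all genes called) and with a fold of 1.5 (4.18%). Outside Sertoli cells the count of 1 (F11r in stromal cells) became 0 under the stricter cell filter, with 15% of doublet scores left out and with 1 round of clustering, where no stromal class remained in the last 2, and 2 without the CPM minimum. It was 2 (F11r and Jam3) without wildtype replicate 1 and 2 without wildtype replicate 2, where 29.0% and 36.8% of all stromal genes were called. The 8 members highest in Sertoli cells in all libraries became 5 in the low-UMI Sertoli clusters alone. The stricter filter left too few Sertoli cells for a value. The cause of each change was not tested where fewer cells do not give it. In Sertoli cells Cldn11 (-0.89 to -0.08), Cldn3 (-1.05 to -0.49), Ocln (-0.97 to -0.39), F11r (-0.34 to -0.03) and Gja1 (-0.37 to -0.07) kept a negative ratio under every alternative that gave a Sertoli class, while Jam3 (-0.14 to 0.38), Tjp1 (-0.32 to 0.17), Cdh2 (-0.14 to 0.24) and Ctnna1 (-0.19 to 0.59) did not keep 1 sign. Over 20 settings Jam2 lay between -2.72 and -1.34 in late spermatocytes and between -1.42 and -0.92 in round spermatids, where it was short of the 2-fold limit with 5 CPM added. The 83 genes called in Sertoli cells became 428 and 456 without a wildtype library, 351 at a fold of 1.5, 971 without the CPM minimum and 47 with 5 CPM added. Size factors moved the median of all genes by 0.168 in stromal cells and by 0.059 or less elsewhere. No paired analysis was possible because the knockout group has 1 library and shares fewer than 2 replicate numbers with the wildtype group.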

Other observations

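The 1833, 1816 and 904 barcodes that failed the cell filter held RNA of all 9 genes, and the knockout library was not the lowest there for most of them. Cldn11 was at 155, 206 and 177 CPM in these barcodes and Cldn3 at 32.9, 59.99 and 42.9 CPM, with the knockout library between the wildtype libraries. Ocln was at 13.6, 17.0 and 13.5 CPM. Tjp1 (51.2, 71.5 and 83.3 CPM), F11r (53.4, 65.5 and 73.9 CPM) and Ctnna1 (54.8, 61.6 and 67.2 CPM) were highest in the knockout library. These barcodes mix cell types and were not assigned to classes.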
